A study of Mus musculus with 12 samples.

Results

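The control cultures of cardiac fibroblasts were followed here from Day 3 to Day 7, as 2 libraries at Day 3 against 2 libraries at Day 7 out of 12 bulk RNAseq libraries in all. The libraries were taken by their labels, as control cells at those time points. The cells came from hearts of newborn mice, which by the study's methods were pooled before digestion, with an optional depletion of PECAM1-positive endothelial cells, selection for THY1 on magnetic columns and plating on collagen. The study's animals were *C57BL/6J* or *Tcf21*-CreERT2 bred with *Rosa26*-tdTomato, and the labels do not say which gave these libraries. All libraries carried the labels heart, fibroblast and EGM2 media, the growth medium used for endothelial cells. The control columns carry the name of the pMX retroviral backbone, and what the control virus held is not given in the sources used here. The remaining libraries were control cells at 4 weeks and cells given *Sox17* and *Erg* at the same 3 time points, with 2 libraries in each of 6 groups.

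A freshly plated fibroblast adheres, spreads and takes on features of a myofibroblast, the contractile cell of scars. Serum response factor with its myocardin-family partners drives the contractile genes, and TGF-beta signaling drives much of the matrix program, with periostin and tenascin C as well known members. A resting heart fibroblast makes fibrillar collagen, small proteoglycans such as decorin, growth-factor-binding proteins and complement components. Genes are given below by these roles, and members that did not pass the test are familiar examples chosen with their values in view.

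Between 22477092 and 27088272 counts on genes were deposited for each of the 4 libraries. The 10 genes with most counts held 10.2% to 11.4% of each library, and mitochondrial transcripts held 2.43% and 2.64% at Day 3 and 3.09% and 2.96% at Day 7. The labels do not say that replicates were separate cultures, so the p-values measure only the spread between these libraries. What gives that spread was not tested. Markers and Y-linked genes that kept an order by replicate number are given below. Replicates differed by more than counting noise (chi-square per degree of freedom 27.8 at Day 3 and 63.0 at Day 7), and 1052 genes at Day 3 and 1472 at Day 7 differed over 2-fold between the replicates of a day. Levels are CPM, a gene's counts relative to the library total scaled by TMM factors, 2 values for a day are replicates 1 and 2 in that order, and a difference is a log2 fold change of Day 7 over Day 3 with its standard error (SE) and the Benjamini-Hochberg adjusted p of edgeR's quasi-likelihood test. An exact permutation test of 2 libraries against 2 cannot go below p = 0.33 and was not used. In bulk RNA, fewer cells of a type and less RNA per cell cannot be told apart, and this holds for every level below.

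The markers fixed for fibroblasts were abundant in all 4 libraries. *Col1a1*, a chain of type I collagen, was at 14010 and 17140 CPM at Day 3 and at 9049 and 9578 CPM at Day 7. *Thy1*, the antigen used to select the cells, was at 375 and 428 CPM and then at 349 and 296.5 CPM. Both were lower in each Day 7 library, and neither passed the test (edgeR adjusted p = 0.107 and 0.476). *Pdgfra*, the receptor that marks resting heart fibroblasts, was at 544 and 756.5 CPM at Day 3 and 1138 and 1905 CPM at Day 7, and *Tcf21*, the transcription factor of the fibroblast lineage, at 179 and 256 CPM and then at 343 and 582.5 CPM. The groups did not overlap for either gene, and again neither passed (edgeR adjusted p = 0.19 and 0.308). Of the 14 fibroblast markers *Dcn* rose, and *Postn*, *Vim* and *Mfap5* fell.

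From Day 3 to Day 7, 729 of 15506 tested genes rose and 629 fell at an adjusted p under 0.05, or 4.7% and 4.06% of all tested genes and 8.76% in either direction. The genes that rose had a median log2 fold change of 1.27 and those that fell of -0.849, while the median over all genes was -0.0079. Changes over 2 on the log2 scale were held by 219 genes that rose and 70 that fell. Libraries of the 2 days did not overlap for any of the called genes, as also in 28.1% of all tested genes with Day 7 higher and 28.6% with Day 7 lower. The calls lean on few libraries. Without Day 3 replicate 1, 68 genes rose and 46 fell, and without Day 3 replicate 2, 59 and 32. No gene of the 1358 called changed sign without any 1 of the 4 libraries, but with days that did not overlap the sign could hardly change. Upper quartile scaling gave 701 higher and 740 lower, so which direction holds more genes depends on the scaling.

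Contractile genes of smooth muscle and of myofibroblasts held the largest share of members that fell among the 29 gene lists. Of 30 tested smooth muscle and myofibroblast contractile genes, 11 fell and 1 rose, against 4.06% and 4.7% of all tested genes, with a median log2 fold change of -0.863. In 25 of the 30 both Day 7 libraries lay below both Day 3 libraries, against 28.6% of all tested genes. *Acta2*, the smooth muscle actin that defines the myofibroblast, was at 2328 and 2142 CPM at Day 3 and at 698 and 347 CPM at Day 7, a log2 fold change of -2.10 ± 0.52 (edgeR adjusted p = 0.04). *Myocd*, the myocardin coactivator of serum response factor, went from 17.6 and 12.8 CPM to 3.84 and 2.41 CPM (-2.28 ± 0.39, edgeR adjusted p = 0.0126). *Lmod1*, the leiomodin that nucleates actin filaments, went from 70.3 and 76 CPM to 18.9 and 22.1 CPM (-1.83 ± 0.25, edgeR adjusted p = 0.00583). The 2 days did not overlap for any of the 3, and the Day 7 replicates lay farthest apart for *Acta2*.

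Structural partners of actin fell by less. *Csrp1*, a LIM-domain protein of actin bundles, was at 353 and 381 CPM at Day 3 and at 140 and 160 CPM at Day 7 (-1.29 ± 0.17, edgeR adjusted p = 0.00479). *Tpm1*, a tropomyosin, was at 644 and 549 CPM and then at 269 and 217 CPM (-1.30 ± 0.22), and *Actn1*, the alpha-actinin of stress fibers, at 1070 and 996 CPM and then at 482 and 392 CPM (-1.24 ± 0.22). The other members that fell were *Ldb3*, *Myl9*, *Cnn2*, *Smtn* and *Pdlim7*, by 0.79 to 1.31 on the log2 scale. *Pdlim3* rose from 74.4 and 92.7 CPM to 153 and 324 CPM. *Tagln* (SM22), at 1141 and 935 CPM and then at 541 and 106 CPM, did not pass, and its Day 7 replicates differed from each other more than replicate 1 differed from Day 3. *Mylk*, the myosin light chain kinase, stood higher in both Day 7 libraries, at 275 and 335 CPM against 93.4 and 89.3 CPM, and did not pass (edgeR adjusted p = 0.0637). With 1 control library left out at a time, between 0 and 9 members fell, with none without Day 3 replicate 2 and 2 each without Day 3 replicate 1 and without Day 7 replicate 2. With 6 control libraries alone, 6 members fell.

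**Figure D1:**
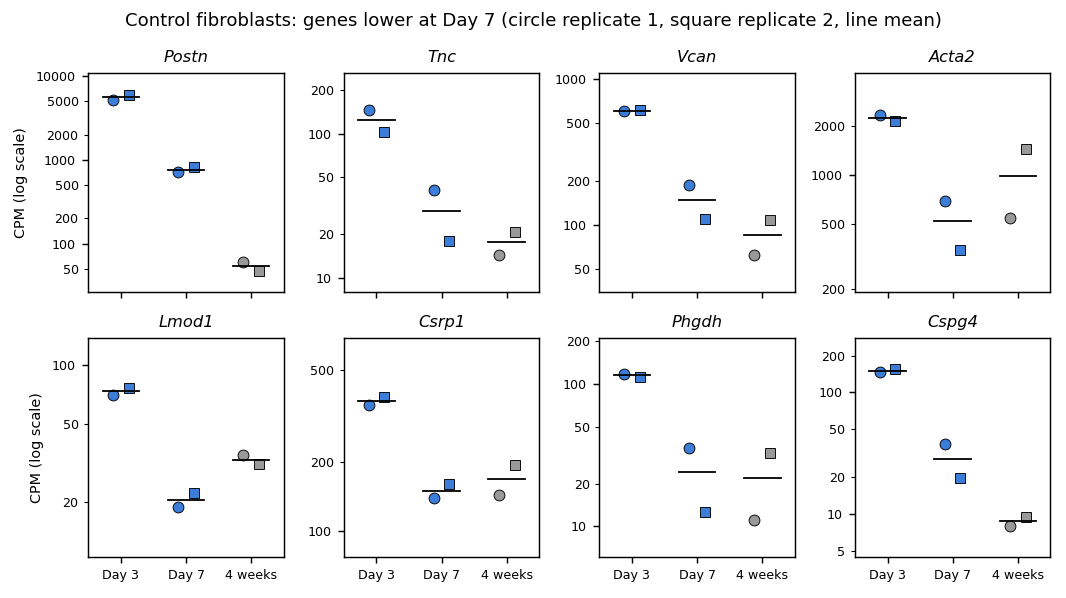
CPM on a log axis in each control library for 8 genes that fell, with circles for replicate 1, squares for replicate 2 and lines for group means, and with the 4-week libraries in gray. The Day 7 points lie below the Day 3 points in every panel, *Postn* falls again to 60.4 and 47.5 CPM at 4 weeks, and *Acta2* is at 548 and 1435 CPM there.

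Serum response factor binds the CArG box, and 10 of the 11 contractile genes that fell had a promoter in the RefSeq table of GRCm38.p6. Over the 250 bases before the start on both strands, 3 of these 10 genes held a full match (*Cnn2*, *Ldb3* and *Myl9*), as did 3 of 16 members that did not fall and 1.62% of all genes in the table (1.47% of its 32851 promoters). The matches are descriptions of sequence, and no binding was measured. The promoters of *Myl9* (chr2:156775214-156775463, plus strand) and *Cnn2* (chr10:79988350-79988599, plus strand) are shown as examples from the genes that fell and held a match. The match is in capitals and begins 161 and 56 bases before the start.
Myl9: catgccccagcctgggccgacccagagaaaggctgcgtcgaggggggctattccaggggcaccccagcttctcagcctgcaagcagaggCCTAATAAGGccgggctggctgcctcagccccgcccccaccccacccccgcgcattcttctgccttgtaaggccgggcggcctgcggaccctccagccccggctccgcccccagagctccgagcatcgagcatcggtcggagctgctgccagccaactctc
Cnn2: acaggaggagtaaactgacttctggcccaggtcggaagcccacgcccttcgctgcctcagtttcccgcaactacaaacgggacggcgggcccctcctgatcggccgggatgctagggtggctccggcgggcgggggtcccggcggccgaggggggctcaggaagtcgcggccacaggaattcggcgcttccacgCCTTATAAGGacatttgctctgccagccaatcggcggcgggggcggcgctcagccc

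*Myl9*, a myosin regulatory light chain, was at 185 and 159 CPM at Day 3 and at 98.3 and 77.1 CPM at Day 7 (-0.97 ± 0.25, edgeR adjusted p = 0.0464). *Cnn2*, a calponin, was at 729 and 750 CPM and then at 403 and 384 CPM (-0.91 ± 0.15, edgeR adjusted p = 0.0111). Day 7 was lower in each library for both genes.

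Matricellular proteins, which lie in the matrix and signal to cells, moved in both directions. Among 33 tested members, 6 rose and 4 fell (18.2% and 12.1%, against 4.7% and 4.06% of all tested genes). The median log2 fold change was 0.252. *Postn*, the periostin gene of activated fibroblasts, went from 5120 and 5992 CPM to 711 and 810 CPM (-2.87 ± 0.27, edgeR adjusted p = 0.00144). *Tnc*, tenascin C, was at 146 and 102 CPM and then at 40.3 and 18 CPM (-2.09 ± 0.42, edgeR adjusted p = 0.0217). *Vcan*, the large proteoglycan versican of provisional matrix, was at 610 and 611 CPM and then at 188 and 110 CPM (-2.04 ± 0.38, edgeR adjusted p = 0.0162). *Fbln2* also fell. The replicates of each day lay much closer to each other than to the other day for *Postn* and *Vcan*.

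Those that rose included *Spon1*, which encodes F-spondin, from 77 and 67.7 CPM to 600 and 1030 CPM (3.49 ± 0.65, edgeR adjusted p = 0.0165). *Fbln1*, the fibulin of basement membranes and elastic fibers, rose from 22.9 and 25.8 CPM to 136 and 214 CPM (2.85 ± 0.32, edgeR adjusted p = 0.00275). *Mgp*, the matrix Gla protein that inhibits calcification, rose from 1517 and 1797 CPM to 3959 and 4586 CPM (1.37 ± 0.23, edgeR adjusted p = 0.0128) and was among the 5 risers with most counts. *Smoc1*, *Fbln7* and *Comp* rose too, the last from 0.145 and 0.277 CPM. *Fn1*, fibronectin, was at 12540 and 11920 CPM and then at 12580 and 14790 CPM and did not pass (edgeR adjusted p = 0.813). *Ccn2*, a target of TGF-beta and YAP, was at 1732 and 1891 CPM and then at 1522 and 1835 CPM, and its days overlapped. Without Day 3 replicate 1, 2 members of the list rose and 1 fell, without Day 3 replicate 2, 1 and 1, and without Day 7 replicate 2, 2 and 1.

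Collagen chains moved in both directions. Of 42 tested chains, 7 rose and 3 fell (16.7% and 7.14%, against 4.7% and 4.06% of all tested genes). The fibrillar chains *Col1a1*, *Col1a2* and *Col3a1* did not pass. *Col4a3*, a chain of the basement membrane network of specialized tissues, was at 51.2 and 40.5 CPM at Day 3 and at 157 and 149 CPM at Day 7 (1.74 ± 0.22, edgeR adjusted p = 0.00472), and its head-to-head neighbor *Col4a4* was at 95.1 and 62.8 CPM and then at 257 and 190 CPM (edgeR adjusted p = 0.0121). *Col4a1*, the chain of ordinary basement membranes, was not among those called. *Col27a1*, *Col9a2*, *Col6a5*, *Col6a6* and *Col28a1* rose as well, and of these only *Col27a1* was above 10 CPM in every library. *Col14a1*, which decorates collagen fibrils, fell from 479 and 636 CPM to 182 and 232 CPM (-1.43 ± 0.26, edgeR adjusted p = 0.016), and *Col24a1* and *Col19a1* fell at low levels. *Col3a1* was at 2964 and 4131 CPM and then at 5064 and 8670 CPM. Without Day 3 replicate 1, 2 chains rose, without Day 3 replicate 2 none, without Day 7 replicate 2, 3, and none fell with any 1 of the 4 libraries left out.

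Enzymes that build collagen leaned lower, with 5 of 26 lower and 3 higher (19.2% and 11.5%, against 4.06% and 4.7% of all tested genes). *Serpinh1* (HSP47), the collagen chaperone, was at 2782 and 3219 CPM at Day 3 and at 1704 and 1155 CPM at Day 7 (-1.07 ± 0.26, edgeR adjusted p = 0.04). *Tll1*, *P4ha2*, *Loxl4* and *Fkbp10*, which process, hydroxylate, crosslink and fold procollagen, fell by 0.76 to 1.73 on the log2 scale. *P3h2*, a prolyl 3-hydroxylase, rose from 13.9 and 11.9 CPM to 47.9 and 59.6 CPM (2.06 ± 0.33, edgeR adjusted p = 0.00978), with *P3h3* and *Adamts3*. No member of this group was called lower without either Day 3 library or without Day 7 replicate 2.

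Small leucine-rich proteoglycans, which coat collagen fibrils, had 3 of 13 members called higher (23.1%, against 4.7% of all tested genes) and none lower. Their median log2 fold change was 1.15. *Dcn*, decorin, was at 281 and 382 CPM at Day 3 and at 1187 and 2259 CPM at Day 7 (2.38 ± 0.55, edgeR adjusted p = 0.0339). *Ogn*, osteoglycin, was at 74.5 and 101 CPM and then at 441 and 820 CPM (2.85 ± 0.57, edgeR adjusted p = 0.0203). *Fmod*, fibromodulin, rose too. *Lum* and *Prelp* did not overlap between the days but did not pass, and *Bgn*, at 5442 and 6346 CPM and then at 8947 and 11400 CPM, did not pass either. Only 1 member rose without Day 3 replicate 1 or without Day 7 replicate 2, and none without Day 3 replicate 2.

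Elastic fiber genes had 5 of 15 members higher and 2 lower (33.3% and 13.3%, against 4.7% and 4.06% of all tested genes). Latent TGF-beta binding proteins, which hold latent TGF-beta in the matrix, took different directions. *Ltbp4* rose from 275 and 305 CPM to 986 and 1382 CPM (2.03 ± 0.19, edgeR adjusted p = 0.00144), *Ltbp3* rose from 250 and 268 CPM to 515 and 594 CPM, and *Ltbp1* fell from 140 and 116 CPM to 74.8 and 51.8 CPM. *Mfap4*, *Mfap2* and *Fbn2* rose and *Mfap5* fell. *Eln*, elastin itself, was at 273 and 226 CPM and then at 311 and 441 CPM and did not pass (edgeR adjusted p = 0.104). A single member rose and none fell without Day 3 replicate 1, without Day 3 replicate 2 or without Day 7 replicate 2.

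Matrix proteases and their inhibitors had 7 of 39 members higher and 4 lower (17.9% and 10.3%, against 4.7% and 4.06% of all tested genes). *Mmp2*, the gelatinase of resting stroma, was at 543 and 466 CPM at Day 3 and at 1414 and 1964 CPM at Day 7 (1.74 ± 0.21, edgeR adjusted p = 0.00348). *Adamts15* went from 9.39 and 15.1 CPM to 131 and 332 CPM (4.24 ± 0.73, edgeR adjusted p = 0.0128). *Adamts1*, which cleaves versican, fell from 1240 and 1385 CPM to 546 and 611 CPM (-1.18 ± 0.29, edgeR adjusted p = 0.0378). Members that rose numbered 1 without Day 3 replicate 1, 0 without Day 3 replicate 2 and 2 without Day 7 replicate 2, and those that fell at most 1, which was without Day 7 replicate 1.

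Complement and MHC class I held the largest share of called members among the 29 lists. Of 26 tested members 14 rose (53.8%, against 4.7% of all tested genes) and none fell, with a median log2 fold change of 1.18. The 14 include *Cfd*, which is also in the adipocyte list described below and was uneven between the Day 7 replicates. With 1 control library left out at a time, 3 to 10 members rose, fewest without Day 3 replicate 2. *C3*, the central complement component, was at 25.3 and 12.6 CPM at Day 3 and at 741 and 846 CPM at Day 7 (5.38 ± 0.52, edgeR adjusted p = 0.0015). *C1s1*, a protease of the C1 complex, was at 22 and 14.4 CPM and then at 129 and 144 CPM (2.90 ± 0.32, edgeR adjusted p = 0.00263). The 2 replicates at Day 7 agreed to within a small part of the change for *C3* and *C1s1*.

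Other complement genes moved alike. *C1ra*, *C4b*, *C2*, *Cfb* and *Cfi* rose by 1.74 to 3.19 on the log2 scale, and so did *Cd55*, which speeds decay of the convertases, by 2.10 from 18.3 and 16.6 CPM to 69.3 and 80.5 CPM. *Serping1*, the C1 inhibitor, was at 536 and 717 CPM and then at 1172 and 2262 CPM and did not pass (edgeR adjusted p = 0.175). For antigen presentation, *H2-D1* rose from 216 and 262 CPM to 754 and 666 CPM (1.57 ± 0.16, edgeR adjusted p = 0.00195), *H2-K1* from 95.8 and 135 CPM to 280 and 274 CPM (1.26 ± 0.26, edgeR adjusted p = 0.0217) and *B2m*, their shared light chain, from 525 and 594 CPM to 1039 and 861 CPM (0.76 ± 0.19, edgeR adjusted p = 0.0396). The H2 genes are near-identical copies, so counts may have been split between them. The immunoproteasome subunits *Psmb8*, *Psmb9* and *Psmb10* and the peptide transporters *Tap1* and *Tap2* did not pass.

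**Figure D2:**
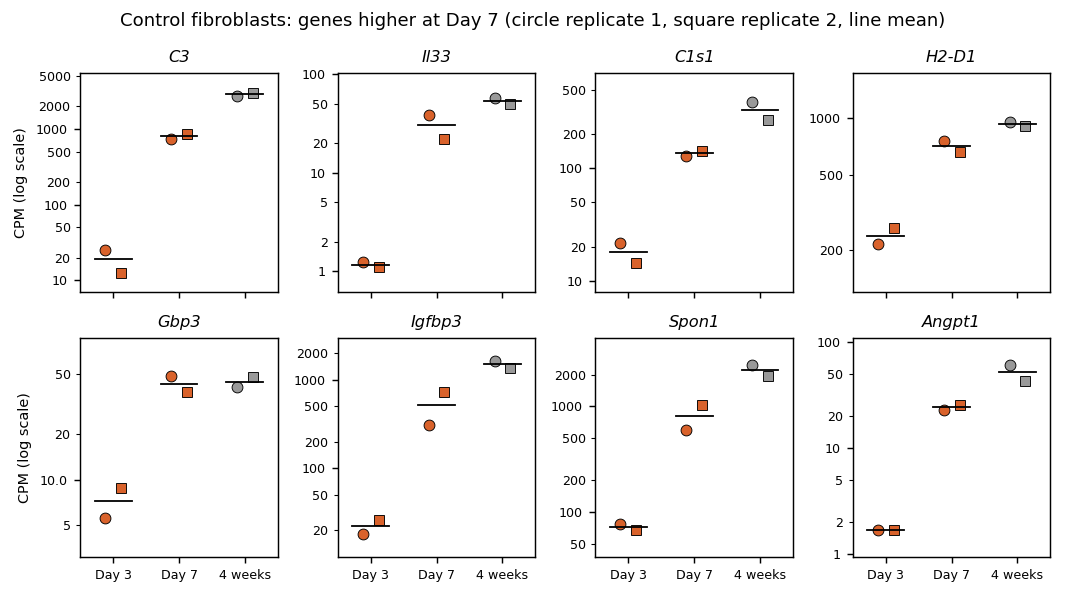
CPM on a log axis in each control library for 8 genes that rose, drawn as for the genes that fell. Day 7 lies above Day 3 in every panel, and the 4-week libraries, in gray, reach 2683 and 2988 CPM for *C3* and 40.9 and 47.7 CPM for *Gbp3*.

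Interferon-stimulated genes stood higher as a group. Of 38 tested members 10 rose (26.3%, against 4.7%) and none fell, the log2 fold change was above 0 in 37, its median was 1.25, and in 35 both Day 7 libraries lay above both Day 3 libraries, which held for 28.1% of all tested genes. *Gbp3*, a guanylate-binding GTPase, was at 5.57 and 8.83 CPM at Day 3 and at 48.3 and 38.3 CPM at Day 7 (2.59 ± 0.30, edgeR adjusted p = 0.00328). *Ifit1*, which binds foreign capped RNA, was at 5.2 and 9.8 CPM and then at 41 and 30.8 CPM (2.27 ± 0.50, edgeR adjusted p = 0.0281). *Gbp2* was at 11 and 11 CPM and then at 38.5 and 28.5 CPM (1.61 ± 0.20, edgeR adjusted p = 0.0044). *Oas2*, *Xaf1*, *Gbp7*, *Parp14*, *Irf9*, *Bst2* and *Irf1* rose as well, by 0.78 to 2.32 on the log2 scale. *Isg15* did not overlap between days and did not pass (edgeR adjusted p = 0.0554). Between 1 and 4 members rose with 1 control library left out at a time, with 1 each without Day 3 replicate 1 or 2, 3 without Day 7 replicate 1 and 4 without Day 7 replicate 2, and DESeq2 called 25.

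The interferon response element, searched here as GAAANNGAAA on both strands of the 250 bases before the start, was present in 5 of the 8 called members with a promoter entry, in 10 of 20 members that were not called, and in 3.46% of all genes in the table (2.98% of its promoters). It was also present in 1 of 9 called complement and MHC class I genes with an entry, *B2m*. The promoters of *Ifit1* (chr19:34640639-34640888, plus strand), *Gbp2* (chr3:142620413-142620662, plus strand) and *B2m* (chr2:122147437-122147686, plus strand) are shown for genes of both lists, with matches in capitals. *Ifit1* has 2 matches, beginning 104 and 85 bases before the start, and *Gbp2* and *B2m* have 1 each, beginning 59 and 139 bases before it. On *Ifit1* and *Gbp2* the match reads on the minus strand.
Ifit1: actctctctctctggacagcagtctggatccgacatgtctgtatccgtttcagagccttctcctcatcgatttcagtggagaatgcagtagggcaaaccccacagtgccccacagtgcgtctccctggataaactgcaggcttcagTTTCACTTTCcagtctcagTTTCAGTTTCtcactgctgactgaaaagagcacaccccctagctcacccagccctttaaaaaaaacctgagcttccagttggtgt
Gbp2: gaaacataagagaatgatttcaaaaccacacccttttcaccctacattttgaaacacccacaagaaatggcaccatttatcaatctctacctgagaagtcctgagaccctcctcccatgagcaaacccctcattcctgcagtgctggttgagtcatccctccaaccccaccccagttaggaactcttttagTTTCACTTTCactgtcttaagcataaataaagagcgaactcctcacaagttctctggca
B2m: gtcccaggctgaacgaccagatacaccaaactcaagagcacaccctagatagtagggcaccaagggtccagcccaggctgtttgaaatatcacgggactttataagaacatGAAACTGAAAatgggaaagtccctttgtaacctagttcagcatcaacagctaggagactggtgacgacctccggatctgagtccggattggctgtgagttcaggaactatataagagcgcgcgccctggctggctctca

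Macrophage and leukocyte markers stood higher in the same libraries. All 14 tested markers had Day 7 above Day 3 in every library, against 28.1% of all tested genes, with a median log2 fold change of 1.39. None passed the test (edgeR, with the lowest adjusted p of the 14 at 0.118 for *Marco*). *Lyz2*, lysozyme, was at 278 and 208 CPM at Day 3 and at 593 and 1011 CPM at Day 7, and *Marco*, a scavenger receptor, at 11.5 and 17.3 CPM and then at 128 and 296 CPM. *Ptprc* (CD45) was at 4.18 and 3.38 CPM and then at 5.76 and 5.26 CPM. The summed level of the 14 markers was 546 and 350 CPM at Day 3 and 1242 and 1840 CPM at Day 7. Their part in the complement, MHC and interferon results was not tested. At 4 weeks *Lyz2* was at 36.1 and 303 CPM, while *C3* was at 2683 and 2988 CPM and *Gbp3* at 40.9 and 47.7 CPM.

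Chemokine and cytokine genes had 4 of 20 tested members higher and 1 lower (20% and 5%, against 4.7% and 4.06% of all tested genes). *Il33*, an alarmin of stromal nuclei, was at 1.24 and 1.11 CPM at Day 3 and at 38.1 and 22.2 CPM at Day 7 (4.67 ± 0.35, edgeR adjusted p = 0.000667). *Cx3cl1*, fractalkine, was at 6.99 and 5.46 CPM and then at 36 and 30.4 CPM (2.41 ± 0.21, edgeR adjusted p = 0.000977). *Ccl2* and *Cxcl16* rose by 0.68 and 0.85 on the log2 scale. *Csf1*, the macrophage growth factor, fell from 1671 and 1598 CPM to 1110 and 934 CPM (-0.68 ± 0.16, edgeR adjusted p = 0.0366). The count of members that rose was 2 without either Day 3 library or Day 7 replicate 2, and none fell without any 1 of the 4 libraries. *Il6* was at or below 1.24 CPM in each of the 4 libraries.

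Insulin-like growth factor genes had 6 of 17 tested members called higher (35.3%, against 4.7% of all tested genes) and none called lower. The log2 fold change was above 0 in 10 and below 0 in 7, down to -1.49. *Igfbp3*, the main carrier of circulating IGF, was at 18.1 and 26.4 CPM at Day 3 and at 311 and 719 CPM at Day 7 (4.53 ± 0.41, edgeR adjusted p = 0.00132). *Igfbp4* went from 53.6 and 33.9 CPM to 209 and 307 CPM (2.56 ± 0.31, edgeR adjusted p = 0.00372), and the ligand *Igf1* from 10.2 and 8.97 CPM to 36.1 and 76.5 CPM (2.56 ± 0.38, edgeR adjusted p = 0.00772). *Igfbp6* rose by 1.77, *Igfbp7* by 1.16 and the adaptor *Irs2* by 0.65 on the log2 scale. The receptor *Igf1r* and the fetal ligand *Igf2* did not pass, with *Igf2* at 57.9 and 52.7 CPM and then at 71 and 38.8 CPM. Without either Day 3 library 2 members rose, and without Day 7 replicate 2, 4.

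In the TGF-beta and BMP group, 10 of 42 tested members rose and 1 fell (23.8% and 2.38%, against 4.7% and 4.06% of all tested genes). The one that fell was a ligand, *Inhba*, the activin A subunit, from 110 and 106 CPM to 42.7 and 28.8 CPM (-1.60 ± 0.23, edgeR adjusted p = 0.00702). Among ligands *Bmp2* rose from 1.31 and 2.77 CPM to 9.56 and 18.7 CPM (2.80 ± 0.40, edgeR adjusted p = 0.00702), with *Gdf10*. Among receptors *Tgfbr2* rose from 105 and 111 CPM to 209 and 269 CPM (1.14 ± 0.17, edgeR adjusted p = 0.00737), with *Tgfbr1* and *Bmpr1a*. The BMP target genes *Id1*, *Id2* and *Id3* and the inhibitory *Smad6* rose by 0.80 to 1.49 on the log2 scale, as did *Smad9* by 0.93. None of *Tgfb1*, *Tgfb2* and *Tgfb3* passed, and their log2 fold changes were -0.12, 0.16 and 0.38. No member of the list rose without Day 3 replicate 1, 2 rose without Day 3 replicate 2 and 4 without Day 7 replicate 2.

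The PDGF, FGF and VEGF list and the Wnt list had called shares nearer to the 8.76% of all tested genes called in either direction. In the PDGF, FGF and VEGF list *Angpt1*, the Tie2 ligand made by stromal cells, rose from 1.71 and 1.71 CPM to 22.5 and 25.6 CPM (3.81 ± 0.36, edgeR adjusted p = 0.00144), while *Pgf* and *Spred3* fell, 3 of 37 tested in all. *Angpt1* was called also without any 1 of the control libraries. In the Wnt pathway 3 of 38 rose and 1 fell. *Fzd1*, a receptor, rose from 40 and 35.3 CPM to 84.1 and 89.5 CPM (1.20 ± 0.13, edgeR adjusted p = 0.00215), *Sfrp1*, a secreted Wnt binder, rose from 136 and 116 CPM to 334 and 340 CPM (1.42 ± 0.24, edgeR adjusted p = 0.0128), and the feedback inhibitor *Nkd2* fell from 29.6 and 27.9 CPM to 10.7 and 8.56 CPM. Of 17 retinoic acid genes 4 rose (23.5%, against 4.7% of all tested genes) and none fell. *Dhrs3*, a retinaldehyde reductase, was at 14 and 14.4 CPM and then at 61.1 and 62.7 CPM (2.12 ± 0.18, edgeR adjusted p = 0.00088), and the others included *Rarres2* and *Rarb*. Without either Day 3 library, 1 Wnt and 2 retinoic acid genes rose, and *Nkd2*, *Pgf* and *Spred3* were not called.

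Adipocyte genes stood higher, but unevenly over the Day 7 libraries. Of 25 tested members 8 rose and 1 fell (32% and 4%, against 4.7% and 4.06% of all tested genes). The member that fell was *Fasn*, fatty acid synthase. *Cfd*, adipsin, had 0 counts in both Day 3 libraries and was at 30.1 and 1.85 CPM at Day 7, at least 129-fold higher by the group means against a floor of 3 counts per library. *Adipoq*, adiponectin, was at 0.0364 and 0 CPM and then at 22.7 and 1.65 CPM, and *Plin1*, perilipin of lipid droplets, at 0.364 and 0.0462 CPM and then at 30.15 and 2.49 CPM. All 3 were over 10 times higher in replicate 1 than in replicate 2 at Day 7. Members with broader expression were closer between replicates. *Apoe*, apolipoprotein E, was at 194 and 159 CPM and then at 1155 and 1569 CPM (2.95 ± 0.39, edgeR adjusted p = 0.00514), and *Cebpa*, *Pnpla2*, *Lipe* and *Retsat* rose by 0.91 to 1.94 on the log2 scale. *Pparg* was at 6.33 and 7.08 CPM and then at 17.4 and 6.75 CPM and did not pass. No member rose without either Day 3 library, 7 rose without Day 7 replicate 1 and 8 without Day 7 replicate 2.

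In the ATF4 and unfolded protein response list, 8 of 30 fell and 1 rose (26.7% and 3.33%, against 4.06% and 4.7%). Those that fell were *Phgdh*, *Psat1* and *Shmt2*, enzymes of serine and glycine synthesis, *Asns*, which makes asparagine, *Aldh18a1*, the amino acid transporters *Slc7a5* and *Slc7a1*, and *Trib3*, a pseudokinase induced by ATF4. *Phgdh* was at 118 and 113 CPM at Day 3 and at 35.6 and 12.7 CPM at Day 7 (-2.25 ± 0.56, edgeR adjusted p = 0.0411), and *Aldh18a1*, for proline synthesis, at 86.8 and 79.6 CPM and then at 28.1 and 19.1 CPM (-1.82 ± 0.35, edgeR adjusted p = 0.019). *Dnajb9*, a chaperone of the endoplasmic reticulum, rose from 18.1 and 19.9 CPM to 32.6 and 28.1 CPM. *Atf4*, at 126 and 124 CPM and then at 91.2 and 71.1 CPM, and *Hspa5* (BiP) did not pass. No member fell without either Day 3 library or without Day 7 replicate 2, and 7 fell without Day 7 replicate 1.

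Glycolytic genes had 4 of 31 members lower and 1 higher (12.9% and 3.23%, against 4.06% and 4.7% of all tested genes). *Pfkp*, a phosphofructokinase, fell from 79.3 and 84.3 CPM to 46.1 and 43.3 CPM (-0.87 ± 0.12, edgeR adjusted p = 0.00689), with *Eno1*, *Pkm* and the lactate exporter *Slc16a3*. *Ldhb*, the lactate dehydrogenase subunit of oxidative tissues, rose from 14.2 and 14.1 CPM to 47.4 and 57.5 CPM (1.89 ± 0.24, edgeR adjusted p = 0.00472). Of 46 oxidative phosphorylation subunits only *Cox5a* fell (2.17%, against 4.06% of all tested genes), by 0.65 on the log2 scale. Of 26 cholesterol synthesis genes none passed, 25 had a negative log2 fold change with a median of -0.626, and in 15 both Day 7 libraries were lower, against 28.6% of all tested genes. *Hmgcs1* was at 172 and 185 CPM and then at 152 and 64.6 CPM, so that replicate 1 at Day 7 lay near Day 3 and replicate 2 did not. Antioxidant genes had 2 higher, *Gsta3* and *Sod3*, and 2 lower, *Nqo1* and *Akr1b8*, of 27 (7.41% each way). Lysosomal genes had 2 of 30 higher, *Ctsb* and *Man2b1* (6.67%). The 7.41% and 6.67% of the antioxidant and lysosomal lists lie near the 4.7% and 4.06% of all tested genes. The 12.9% of glycolytic genes that fell lies above the 4.06%. No glycolytic gene fell without either Day 3 library or without Day 7 replicate 2.

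Cytosolic ribosomal protein genes were looked at after their share of counts was seen to fall from 4.09% and 4.44% of each Day 3 library to 2.87% and 2.77% at Day 7. Of 92 tested, 24 fell and none rose (26.1%, against 4.06% of all tested genes). Both Day 7 libraries were lower in 77 of the 92, against 28.6% of all tested genes, and the median log2 fold change was -0.569. Between 24 and 32 fell under the other scalings, but the calls needed every library: none was lower without either Day 3 library or without Day 7 replicate 2, and 1 without Day 7 replicate 1 (edgeR), while the median stayed between -0.678 and -0.490. These genes have many processed pseudogenes, so reads may have been shared among copies.

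Mitosis genes did not pass the test between these days. Of 42 mitosis genes none was called by edgeR, and 39 had a negative log2 fold change with a median of -0.416. Both Day 7 libraries were lower in 5 of the 42, against 28.6% of all tested genes. *Mki67*, the proliferation antigen, was at 172 and 136 CPM at Day 3 and at 136 and 45 CPM at Day 7, and *Top2a*, topoisomerase II alpha, at 105 and 78.4 CPM and then at 132 and 37.7 CPM. Replicate 2 at Day 7 was the lowest library for both, and replicate 1 stood well above it. From Day 7 to 4 weeks, a comparison that shares the Day 7 libraries, the list's median log2 fold change was -2.79 and *Mki67* reached 11.7 and 11.3 CPM. Of 47 DNA replication genes *Gins4* rose (2.13%), and of 22 G1 cyclin and E2F genes *Ccnd3* and *Rbl2* rose (9.09%), against 4.7% of all tested genes. *Rbl2*, the p130 pocket protein of quiescent cells, was at 29.2 and 33.3 CPM and then at 57.5 and 71 CPM (1.04 ± 0.15, edgeR adjusted p = 0.00702).

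Among CDK inhibitors and p53 targets, *Cdkn2a*, which encodes p16 and p19ARF, rose from 4.66 and 3.65 CPM to 22.8 and 12.1 CPM (2.06 ± 0.40, edgeR adjusted p = 0.0177). *Sesn1* rose too and *Bbc3* fell, so that 2 of 24 rose and 1 fell (8.33% and 4.17%, against 4.7% and 4.06% of all tested genes). *Cdkn1a* (p21) was at 292 and 283 CPM and then at 362 and 234 CPM and did not pass. *Cdkn2a* was at 76.7 and 41.9 CPM at 4 weeks. None of the 24 immediate early and stress genes was called by edgeR, and *Egr1* and *Junb* overlapped between the days, with *Egr1* at 176 and 328 CPM and then at 242 and 161 CPM.

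Few transcription factors of the fibroblast lineage passed. Of 31 tested cardiac fibroblast transcription factors *Nr2f2* rose from 28.1 and 29.2 CPM to 41.4 and 57.4 CPM (0.78 ± 0.18, edgeR adjusted p = 0.0321), *Foxs1* fell from 20.7 and 24.2 CPM to 12.7 and 14.4 CPM, and *Tbx18*, a factor of the epicardial lineage, fell from 61.9 and 61.5 CPM to 48.5 and 42.2 CPM (-0.44 ± 0.11, edgeR adjusted p = 0.0379). This is 1 higher and 2 lower, or 3.23% and 6.45%, against 4.7% and 4.06% of all tested genes. Of 19 chondrogenic, osteogenic and tendon genes 4 rose, *Comp*, *Alpl*, *Fmod* and *Enpp1* (21.1%), and 1 fell (5.26%). The one that fell was *Runx2*, the osteoblast factor, by 0.52 on the log2 scale. *Scx* and *Sox9*, the tendon and cartilage factors, did not pass.

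**Figure D3:**
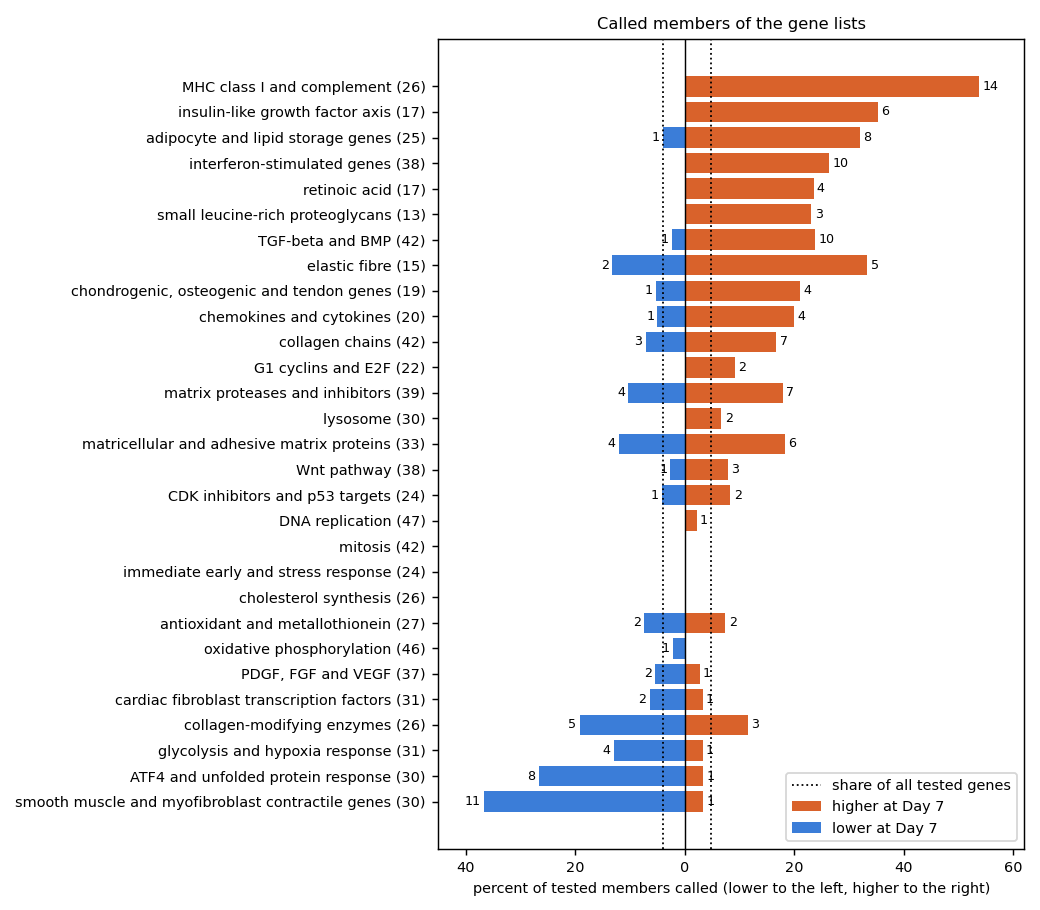
Percent of the tested members of each of 29 gene lists called higher (right, orange) or lower (left, blue) at Day 7, with the number called beside each bar, the number tested in parentheses and dotted lines at the 4.7% and 4.06% of all tested genes. MHC class I and complement reaches furthest to the right and contractile genes furthest to the left.

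Markers of other cell types were measured in the same libraries. None of 13 tested endothelial markers was called by edgeR. *Pecam1*, the antigen used for depletion, was at 12.6 and 16.7 CPM at Day 3 and at 8.95 and 12.4 CPM at Day 7. *Cdh5*, VE-cadherin, was at 0.91 and 14.3 CPM and then at 0.23 and 8.08 CPM, so replicate 2 was the higher on both days, as in 10 of the 13 markers on each day. All 11 mesothelial and epicardial markers were higher in replicate 1 on both days, with *Msln*, mesothelin, at 456 and 171 CPM and then at 721 and 367 CPM. None of 14 cardiomyocyte markers was called by edgeR, and *Tnnt2*, cardiac troponin T, was at 1431 and 832 CPM and then at 804 and 526 CPM.

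Mural cell markers split, with *Cspg4* (NG2) lower, from 146 and 156 CPM to 37.6 and 19.7 CPM (-2.40 ± 0.37, edgeR adjusted p = 0.00915), *Mcam* lower, from 71 and 53.6 CPM to 14.7 and 8.28 CPM (-2.44 ± 0.50, edgeR adjusted p = 0.022), and *Abcc9* and *Higd1b* higher, the latter below 1 CPM throughout. *Alas2*, the first enzyme of heme synthesis in red cell precursors, rose from 0.546 and 0.277 CPM to 31.9 and 22.5 CPM (5.99 ± 0.53, edgeR adjusted p = 0.00109). The globin genes *Hbb-bs* and *Hbb-bt* and the red cell band 3 gene *Slc4a1* had 0 counts in all 4 libraries, and *Hba-a1* and *Hba-a2* were at or below 0.231 CPM. *Cdh19*, a Schwann cell cadherin, rose from 4.18 and 4.99 CPM to 13.6 and 26.7 CPM, while *Sox10* stayed at or below 1.11 CPM. The part of other cell types in the results was otherwise not tested.

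**Figure D4:**
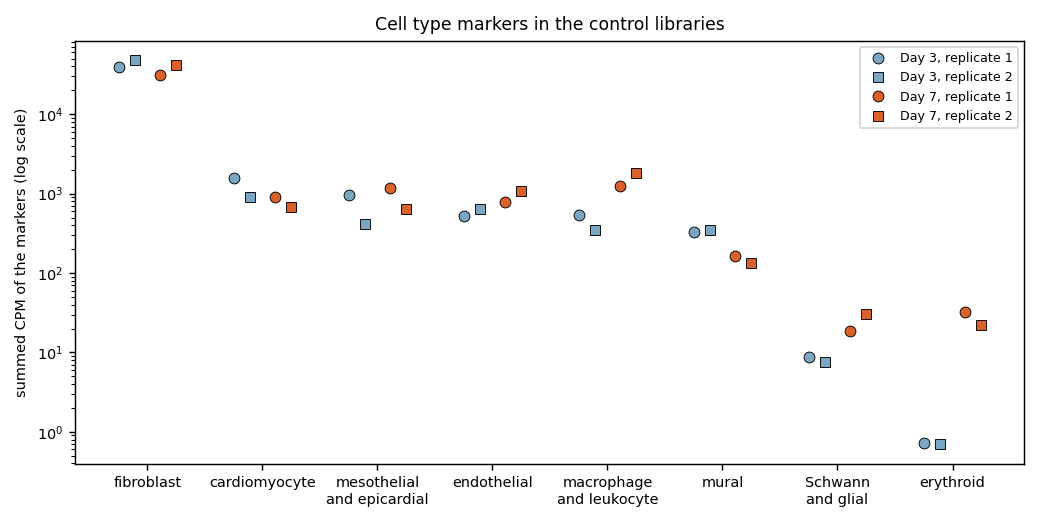
Summed CPM, on a log axis, of the markers fixed for 8 cell types in the control libraries at Day 3 (blue) and Day 7 (orange), with circles for replicate 1 and squares for replicate 2. The macrophage sum is higher in both Day 7 libraries, the mesothelial sum is higher in replicate 1 on both days, and the erythroid sum at Day 7 is *Alas2* almost alone.

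Among protein-coding genes with the largest rises, *Car3*, carbonic anhydrase 3, had 0 counts at Day 3 and was at 115 and 6.23 CPM at Day 7, at least 487-fold higher against the same floor and again far higher in replicate 1. *Hp*, haptoglobin, went from 0.218 and 0.416 CPM to 94.7 and 60.3 CPM (7.96 ± 0.93, edgeR adjusted p = 0.00348). *Angptl7* went from 6.08 and 3.28 CPM to 154 and 67.6 CPM (4.55 ± 0.45). *Lrat*, the retinol esterifying enzyme of vitamin A storing cells, was at or below 0.109 CPM at Day 3 and at 7.8 and 12.9 CPM at Day 7, and at 281 and 133 CPM at 4 weeks. *Gas6*, *Igfbp7* and *Itgb5* were, with *Mgp* and *Fmo2*, the risers with most counts.

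Among the 12 largest falls of protein-coding genes, *Mfsd2a*, a lysophospholipid transporter, went from 8.62 and 7.4 CPM to 0.73 and 1.04 CPM (-3.17 ± 0.54), and *Slc38a4*, an amino acid transporter, from 28.5 and 28.9 CPM to 4.68 and 3.13 CPM (-2.87 ± 0.22). The beta-tubulins *Tubb3* and *Tubb2b*, which are abundant in neurons, fell from 11.6 and 7.49 CPM to 1.27 and 0.884 CPM and from 62.4 and 53.5 CPM to 10.1 and 4.06 CPM. *Hmga2*, a chromatin protein of fetal and growing cells, fell from 306 and 241 CPM to 65.8 and 28.6 CPM (-2.54 ± 0.46). *Megf10*, *Pcyt1b*, *Myo18b* and *Plac8* were the others, with *Postn*, *Mcam* and *Cspg4*. Of the genes that fell, those with most counts were *Postn*, *Actb*, *Vim*, *Ahnak* and *Fbln2*, with beta-actin (*Actb*) at 7470 and 7328 CPM and then at 4110 and 3346 CPM and the intermediate filament vimentin (*Vim*) at 5306 and 5956 CPM and then at 2855 and 2999 CPM.

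The same days in cells given *Sox17* and *Erg* used other libraries and allow a test of the difference in time effect. In those cells 317 genes rose (2.04%) and 214 fell (1.38%). Both cultures called 157 genes higher, 21.5% of the control risers and 49.5% of the *Sox17*-*Erg* risers, and 103 lower, 16.4% and 48.1%. Of the 729 control risers 669 were above 0 on the log2 scale in *Sox17*-*Erg* cells, with a median of 0.682, and of the 629 that fell in control 531 had a negative one, with a median of -0.419. *Postn* was at 5933 and 8196 CPM and then at 3933 and 5887 CPM in *Sox17*-*Erg* cells, and *C3* at 6.63 and 4.91 CPM and then at 36.9 and 91.4 CPM. The time effect differed between the cultures in 13 genes (0.0838% of those tested, with 8.91% at an unadjusted p under 0.05), and for neither *Postn* nor *C3* did the difference pass.

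Of those 13 genes, *Igfbp3* had the largest difference, with a log2 fold change of 4.53 ± 0.41 in control against 0.43 ± 0.36 in *Sox17*-*Erg* cells, where it was already at 736 and 530 CPM at Day 3 and was at 852 and 858 CPM at Day 7 (edgeR adjusted p of the difference = 0.0431). *Celf4*, an RNA-binding protein, was at 4.66 and 4.58 CPM and then at 31.4 and 27.9 CPM in control, and at 4.91 and 4.61 CPM and then at 4.6 and 5.45 CPM in *Sox17*-*Erg* cells (edgeR adjusted p of the difference = 0.00189). *Cd38*, an NAD-consuming ectoenzyme, was at 23.1 and 23.9 CPM and then at 147 and 118 CPM in control, and stayed between 22.1 and 27.8 CPM in *Sox17*-*Erg* cells over both days. *Cd9*, a tetraspanin, fell in control from 82.4 and 95.8 CPM to 46.7 and 39.4 CPM and was at 55.5 and 67.8 CPM and then at 104 and 95.6 CPM in *Sox17*-*Erg* cells. The others were *Fgd3*, *Gabra3*, *Mpp6*, *Pcyt1b*, *Sytl5* and *Zfp970* and, named after their values were seen, *Capn6*, *Magix* and *Plec*. Without any 1 of the 8 libraries of the 2 days, 1 to 10 genes differed.

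**Figure D5:**
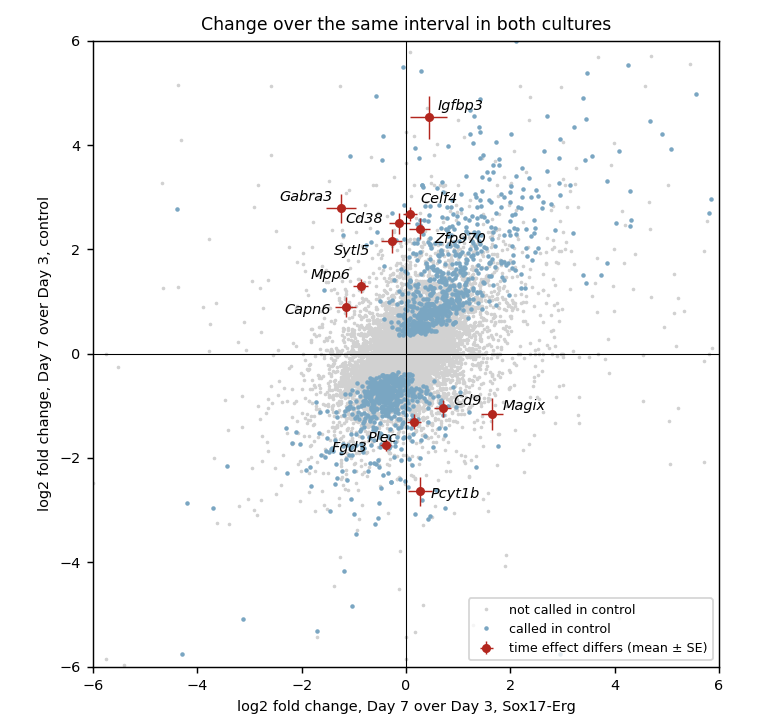
Log2 fold change of Day 7 over Day 3 in *Sox17*-*Erg* cells (x axis) against control (y axis) for each tested gene, with genes called in control in blue and the 13 genes whose time effect differed in red with SE bars; 152 genes lie outside the axes. The red genes sit off the diagonal, and most blue genes lie in the quadrants of equal sign.

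Control libraries at 4 weeks, which are set beside the same Day 7 libraries, held 27 genes higher and 34 lower than Day 7. The levels of *Postn* were 5120 and 5992 CPM at Day 3, 711 and 810 CPM at Day 7 and 60.4 and 47.5 CPM at 4 weeks. Those of *Acta2* were 2328 and 2142 CPM, 698 and 347 CPM and 548 and 1435 CPM, so that 1 replicate at 4 weeks lay between the Day 7 values and the other above them. *Spon1* was at 2474 and 1922 CPM at 4 weeks, above its Day 7 level in each library.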

How the data were processed

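Bulk RNAseq of 12 libraries gave the data. Per the sources used here, the authors sequenced paired ends, made reads with bcl2fastq 2.20.0, trimmed them with BBDuk and quantified genes with Salmon on mm10; they deposited estimated counts per gene as whole numbers for 35727 genes. The Salmon version, the annotation and the strand setting of counting are not given in the sources used here. Of the genes, 35493 matched GENCODE M21 on GRCm38. Of 256 genes eligible to be named, 89 overlap a gene on the other strand and 36 one on the same strand, so their reads may be shared.

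Groups came from the labels. Counts were fitted in edgeR 4.0.16 (R 4.3.3) with TMM factors, a low-count filter (minimum count 10, total 15; 15506 genes kept) and quasi-likelihood tests in 1 model of 6 groups over 12 libraries, with 6 residual degrees of freedom. Calls used a Benjamini-Hochberg adjusted p under 0.05. The fit was tested on simulated data, where it called 125 of 200 changed genes with 5 false calls among 15154 genes tested. The simulation gave genes of like level the same spread and had no replicate effect. Its false calls therefore do not give the rate in these libraries. DESeq2 1.42.0, other scalings, filters, sample sets, a replicate block and leaving out each library were alternatives. Motifs were searched in RefSeq promoters of GRCm38.p6.

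Named genes were the 12 largest rises and falls among called protein-coding genes with days apart and at least 5 CPM in 1 group, up to 6 called members of each list and direction, the 5 called genes with most counts in each direction, cell type markers and 10 genes whose time effect differed. The interval described, the members named and the lists were chosen with earlier results of these data known. Totals of 22477092 to 27088272 counts set the depth. Results on a few genes are not reported here.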

Additional observations from a re-analysis of the deposited data

Results flagged for a closer look

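In all, 10 genes were singled out because their change from Day 3 to Day 7 differed between control and *Sox17*-*Erg* cells in edgeR's test of that difference, which used 2 libraries in each of 4 groups. The differences are log2 changes in control minus those in *Sox17*-*Erg* cells. Those with a larger rise in control were *Igfbp3* at 4.10 ± 0.53 (SE, edgeR adjusted p = 0.0431), *Gabra3* at 4.03 ± 0.40 (edgeR adjusted p = 0.016), *Cd38* at 2.63 ± 0.28 (edgeR adjusted p = 0.0229), *Celf4* at 2.61 ± 0.18 (edgeR adjusted p = 0.00189) and *Sytl5* at 2.44 ± 0.30 (edgeR adjusted p = 0.0387). *Mpp6* at 2.17 ± 0.20 (edgeR adjusted p = 0.0112) and *Zfp970* at 2.14 ± 0.28 (edgeR adjusted p = 0.0431) belonged with them. Those with the lower log2 change in control were *Pcyt1b* at -2.90 ± 0.36 (edgeR adjusted p = 0.0387), *Cd9* at -1.75 ± 0.23 (edgeR adjusted p = 0.0431) and *Fgd3* at -1.355 ± 0.16 (edgeR adjusted p = 0.0384).

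*Pcyt1b*, an enzyme of phosphatidylcholine synthesis, was at 11.6 and 13.1 CPM and then at 2.42 and 1.53 CPM in control, and at 127 and 97.1 CPM and then at 140 and 128 CPM in *Sox17*-*Erg* cells, so the cultures differed already at Day 3. *Gabra3* stayed below 4 CPM in every library of both days.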

How the results depend on the processing

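The main counts were 729 genes higher, 629 lower and 13 whose time effect differed from *Sox17*-*Erg* cells. DESeq2 called 999 lower and 1213 higher, and 279 for the difference. With no filter beyond 1 count, 1366 were higher, 1048 lower and 452 differed. The 4 control libraries alone gave 313 lower, and the 6 control libraries alone 309. At an adjusted p under 0.01 the counts were 131, 72 and 1, at 0.1 they were 1316, 1197 and 35, and 444 and 238 changed at least 2-fold. With 1 library left out at a time, 59 to 715 genes were higher, 32 to 406 lower and 1 to 10 differed. Of the 1358 calls, 110 were also called without Day 3 replicate 1, 90 without Day 3 replicate 2, 799 without Day 7 replicate 1 and 229 without Day 7 replicate 2. The cause was not tested, apart from the smaller number of samples when a library is left out.

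The labels do not say that a replicate number marks a shared culture or batch, and with 2 numbers a group the data cannot settle it. Deviations from group means of same-numbered libraries correlated at 0.174 between control Day 3 and Day 7, at 0.139 to 0.301 over the 6 pairs of groups of these days, and at -0.140 to 0.171 over the pairs that include a 4-week group. As a hint from the data, the 11 mesothelial markers were higher in replicate 1 on both days. In replicate 2, 10 of 13 endothelial markers were higher on each day, and 4 Y-linked genes in 24 of 24 gene and group pairs. Macrophage and cardiomyocyte markers did not keep 1 order. A replicate block over 12 libraries gave 865 higher, 699 lower and 17 that differed, and a block in the 4 control libraries gave 1507 higher and 1221 lower. Other scalings gave 701 to 752 higher and 460 to 740 lower. The days did not overlap for any called gene, so a change of sign was unlikely beforehand. No called value of a named gene changed sign under any of the alternatives, and in 527 gene and alternative pairs a gene lost its call, while in 74 it gained one. Fits of the ribosomal protein genes under other scalings and without single libraries were added after seeing the data.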

Other observations

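Genes on chromosome X were looked at after the genes whose time effect differed had been seen, with no test. Of those 13 genes 5 lie on chromosome X (*Capn6*, *Gabra3*, *Magix*, *Pcyt1b* and *Sytl5*), or 38.5%, beside 3.49% of the 15506 tested genes, 3.84% of the 729 that rose and 4.13% of the 629 that fell in control.

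Also chosen after their values were seen, and with no test, the Y-linked genes *Ddx3y*, *Eif2s3y*, *Kdm5d* and *Uty* were higher in replicate 2 than in replicate 1 in 24 of 24 gene and group pairs. Their summed level was 66.6 and 98.0 CPM in control at Day 3 and 80.1 and 119.3 CPM at Day 7, so replicates 1 and 2 kept their order over both days.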
